A study of Mus musculus with 6 samples.

Results

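The genes of fatty acid uptake, binding and activation were followed in 3T3-L1, a fibroblast-like mouse line whose cells fill with fat droplets under an adipogenic hormone mixture. The set was named gene by gene: Fabp4 and Fabp5 for binding, Cd36, Lpl, Slc27a1 and Slc27a4 for uptake, and Acsl1, Acsl3, Acsl4 and Acsl5 for activation. Of these 10 genes, 9 had a transcript cluster (a gene-level probe set) of their own, each a single cluster, among 21154 genes and 22206 clusters on the array. Acsl3 shared its cluster with Utp14b and was not counted among the measured members. The Tsuru group held 3 arrays of cells induced with IBMX, insulin and dexamethasone in the presence of an extract of Tsuruazuki. The control group held 3 arrays of cells without extract. Insulin medium followed from day 3, and cells of both groups were collected at day 9. The protocol describes the controls as taken through the same induction, whereas their titles name only medium. The labels name more than 1 dilution of the extract and do not say which the arrayed cells received. Nothing states that the 3 samples of a group were separate cultures of this single line, so the p-values rest on a spread between arrays that may be only technical.

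Fat cells take up fatty acids in steps, and each step has its own proteins. Lipoprotein lipase, secreted by adipocytes, frees fatty acids from circulating triacylglycerol, and the scavenger receptor CD36 and the fatty acid transport proteins of the Slc27a family carry them across the plasma membrane. Long-chain acyl-CoA synthetases (the Acsl family) then join the fatty acid to coenzyme A, which traps it in the cell, while small cytosolic binding proteins (the Fabp family) ferry the free acid through the cytosol. Several of these genes, Fabp4, Cd36, Lpl and Slc27a1 among them, are classical targets of PPAR gamma, the nuclear receptor at the head of adipogenesis.

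Fabp5 was the single member that passed the threshold of the study's methods, an unadjusted p under 0.05 with a linear fold above 1.1, and it was 1.48-fold higher with Tsuru. Across the array 11.1% of clusters passed that threshold, 5.75% in the higher and 5.38% in the lower direction. The count of 1 among 9 members lies near the array's 11.1% and is no result about the set. No member passed after Benjamini-Hochberg adjustment over all clusters in limma's moderated test, nor did any other of the 22206 clusters (0%), while 2472 clusters (11.1%) had an unadjusted p under 0.05 in limma; the FDR p-values of the authors' deposited table also gave 0 clusters. Of the other 8 members, 7 had a higher mean with Tsuru and 1, Acsl4, a mean lower by less than 0.01 on the log2 scale, none of them past the threshold. Across the array 50.6% of clusters had a positive difference. The median log2 difference of the 9 members was 0.28, against 0.0039 over all clusters. All 9 members were bright, above the mean of the negative control sets on 6 of 6 arrays, and bright clusters as a class leaned higher: among the 7028 clusters at least as bright as the dimmest member, a background chosen after the data were seen, the median was 0.12, 67.5% had a positive difference and 9.89% passed the threshold in the higher direction. After subtraction of array medians, 72.6% of called clusters lay higher, against 51.7% as deposited. That share was 51.6% after quantile and 45.3% after cyclic loess normalization.

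The 6 arrays were close in overall quality, with a small shift between the groups. Median log2 signals ran from 5.427 to 5.482 on Tsuru arrays and from 5.484 to 5.591 on control arrays, so every Tsuru median lay under every control median. On each array the median lay under the mean of the negative control sets, so it follows clusters near background and not the bright members. Means of the negative control sets ran from 5.75 to 6.01 over the 6 arrays, highest on control replicate 1. That array also had the lowest mean correlation with the other arrays, 0.987, where the others had 0.991 to 0.992. The number of arrays limits the precision: standard errors of the members' log2 differences ran from 0.16 to 0.22. Of 10 adipocyte markers, 9 lay above the negative control mean on every array, leptin (Lep) on none, so both groups carried the transcripts of fat cells. Of 7 measured preadipocyte markers, 5 lay above it as well, with a median difference of -0.0081 over the 7; Zfp423, a regulator of preadipocyte commitment, was the 1 call, higher with Tsuru by 0.48.

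**Figure D1:**
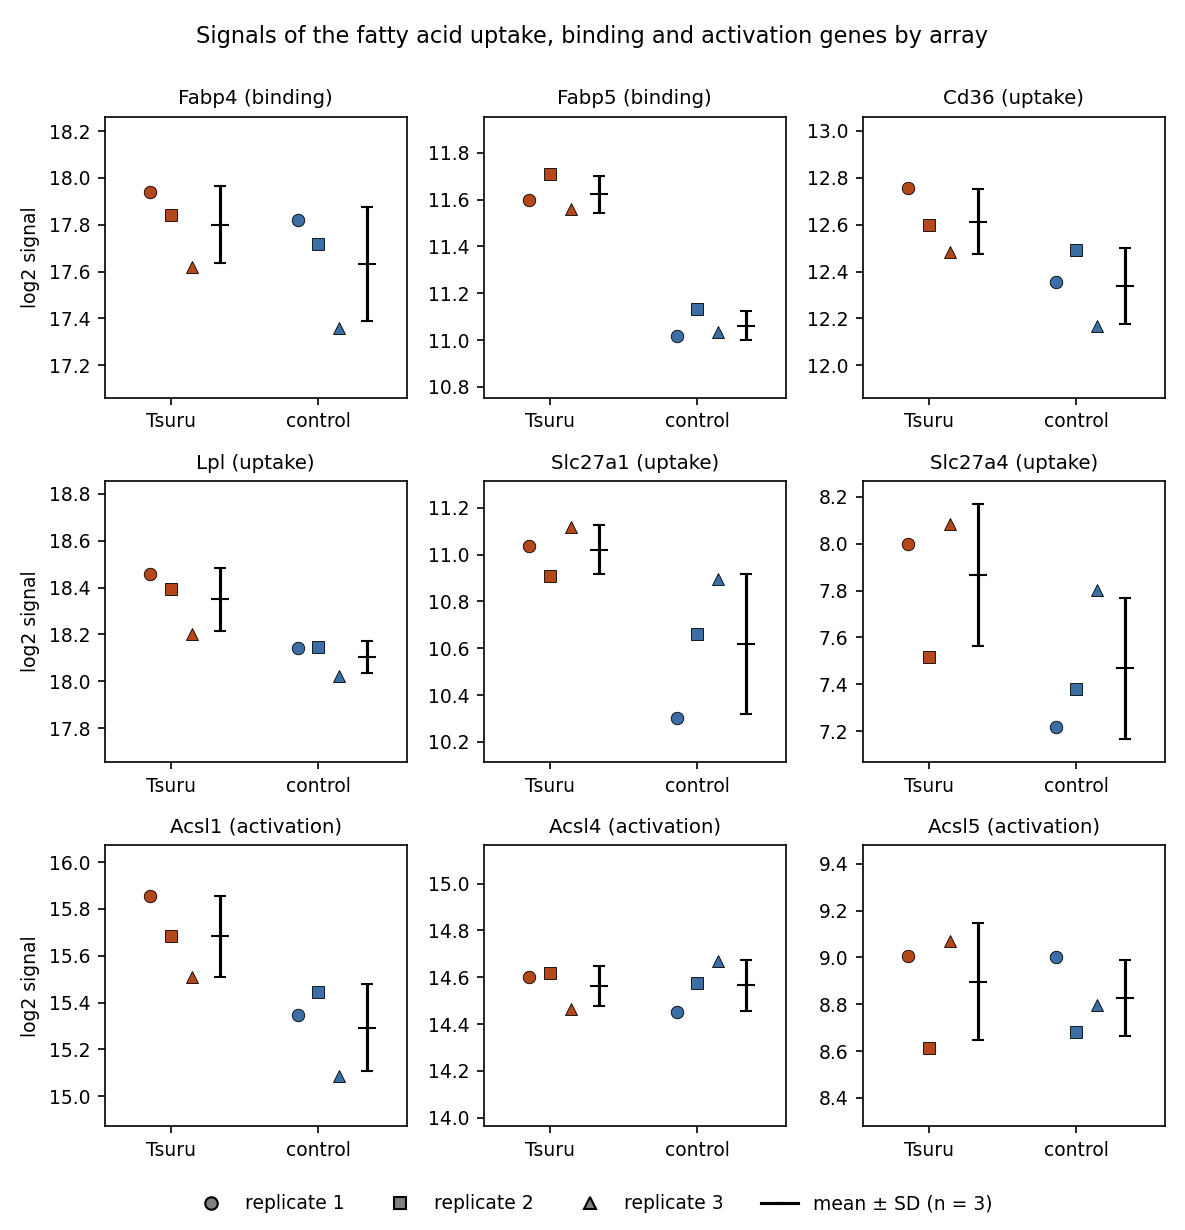
Log2 signal of each of the 9 members on every array, Tsuru left and control right in each panel, with the mean and SD of 3 arrays beside the points; all panels span the same number of log2 units. Fabp5 shows a clear space of 0.43 between the groups, and Acsl4 and Acsl5 overlap.

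Among the binding proteins, the groups did not overlap for Fabp5 and overlapped for Fabp4. Fabp5 encodes the epidermal-type fatty acid binding protein, which adipocytes and macrophages also make. It read 11.60, 11.71 and 11.56 on Tsuru arrays, against 11.02, 11.13 and 11.03 on control arrays. Every Tsuru value lay above every control value, and the space between the groups, 0.43, was wider than the range within either. The difference was 0.56 ± 0.16 (SE) on the log2 scale, with a 95% interval of 0.21 to 0.91 and an adjusted p of 0.35 (limma, Benjamini-Hochberg). Only 1.36% of clusters had a smaller p. Fabp4, which encodes the adipocyte binding protein aP2, read 17.94, 17.84 and 17.62 with Tsuru and 17.82, 17.72 and 17.36 without. The groups overlapped, with a difference of 0.17 ± 0.19 (SE; adjusted p = 0.76). Without control replicate 3, the array with the lowest Fabp4 signal, that difference was 0.03. The within-array difference of Fabp5 minus Fabp4 changed by 0.39 between Tsuru and control, with overlapping groups (exact two-sided permutation test, p = 0.20, where 0.10 is the smallest that 3 against 3 arrays allow; adjusted over 3 pairs of relatives, p = 0.30).

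Genes whose array-by-array profile lay closest to that of Fabp5 were found among 9718 genes brighter than the negative controls, by the root mean square difference of signals centred on each gene's mean over 6 arrays. They were Galnt7, which starts mucin-type O-glycans, at 0.030, Exog, a mitochondrial nuclease gene, at 0.041, and Otud7a, a deubiquitinase gene, at 0.047, where the median over all candidates was 0.32. Their log2 differences were 0.58, 0.53 and 0.58, each with an adjusted p no lower than 0.34 (limma, Benjamini-Hochberg). These lie near the difference of Fabp5 because the genes were selected for likeness to it on the same arrays.

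The uptake genes had higher means with Tsuru in 4 of 4 cases, and none passed the threshold. Cd36 encodes the fatty acid translocase. It read 12.76, 12.60 and 12.48 on Tsuru arrays and 12.36, 12.49 and 12.17 on control arrays. The lowest Tsuru value lay just under the highest control value, and the difference was 0.28 ± 0.17 (SE; adjusted p = 0.57). Lpl, lipoprotein lipase, read 18.46, 18.39 and 18.20 with Tsuru and 18.14, 18.15 and 18.02 without. Its groups did not overlap, by a space of 0.05, and the difference was 0.25 ± 0.16 (adjusted p = 0.59). Under a model in which the variance follows signal, Lpl passed the threshold, and likewise without the empirical Bayes step.

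Slc27a1 and Slc27a4 encode the fatty acid transport proteins FATP1, the insulin-responsive transporter of fat and muscle, and FATP4; both proteins also have acyl-CoA synthetase activity. Slc27a1 read 11.04, 10.91 and 11.12 on Tsuru arrays and 10.30, 10.66 and 10.90 on control arrays. The groups were apart by 0.01 only, and the controls spread by an SD of 0.30 where the Tsuru arrays spread by 0.11. The difference was 0.40 ± 0.19 (SE; adjusted p = 0.47), and it was 0.24 without control replicate 1 and 0.54, past the threshold, without control replicate 3. Slc27a4 read 8.00, 7.52 and 8.08 with Tsuru and 7.22, 7.38 and 7.80 without. Here the groups overlapped, and the difference was 0.40 ± 0.22 (adjusted p = 0.52). It reached 0.57 and passed the threshold without Tsuru replicate 2, and again without control replicate 3. The change in Slc27a4 minus Slc27a1 within arrays was -0.0024 (exact permutation p = 1, adjusted over 3 pairs p = 1). Both genes were lowest of their group on Tsuru replicate 2 and control replicate 1, although Slc27a1 on Tsuru replicate 2 still lay above every control value.

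The measured differences of the synthetases ran from -0.0038 for Acsl4 to 0.39 for Acsl1, and none passed the threshold. Acsl1, the main long-chain acyl-CoA synthetase of adipocytes, read 15.85, 15.68 and 15.51 on Tsuru arrays and 15.35, 15.44 and 15.09 on control arrays. Its groups did not overlap, by a space of 0.07, and the difference was 0.39 ± 0.18 (SE), with a 95% interval of -0.01 to 0.78 and an adjusted p of 0.45. Acsl1 passed the threshold under 5 of 16 other settings, among them the fits without Tsuru replicate 3 (0.48) and without control replicate 2 (0.46). Acsl4, which prefers arachidonic acid, read 14.60, 14.62 and 14.46 with Tsuru and 14.45, 14.57 and 14.67 without. Those groups overlapped almost wholly, with a difference of -0.0038 ± 0.16 and a 95% interval of -0.36 to 0.35, and its sign changed with the normalization. Acsl5, a synthetase of mitochondria and endoplasmic reticulum, read 9.01, 8.61 and 9.07 with Tsuru and 9.00, 8.68 and 8.80 without. The groups overlapped, with a difference of 0.07 ± 0.19, an interval of -0.35 to 0.49, and a sign that turned after quantile or cyclic loess normalization. Within arrays, Acsl5 minus Acsl1 changed by -0.32 between Tsuru and control with overlapping groups (exact permutation p = 0.20, adjusted over 3 pairs p = 0.30), a test that could not reach 0.05 at this size. The cluster shared by Acsl3, the lipid droplet synthetase, and Utp14b read 12.13, 12.12 and 12.24 with Tsuru and 11.83, 11.95 and 12.05 without, a difference of 0.22 ± 0.16 (adjusted p = 0.62) that cannot be assigned to either gene.

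**Figure D2:**
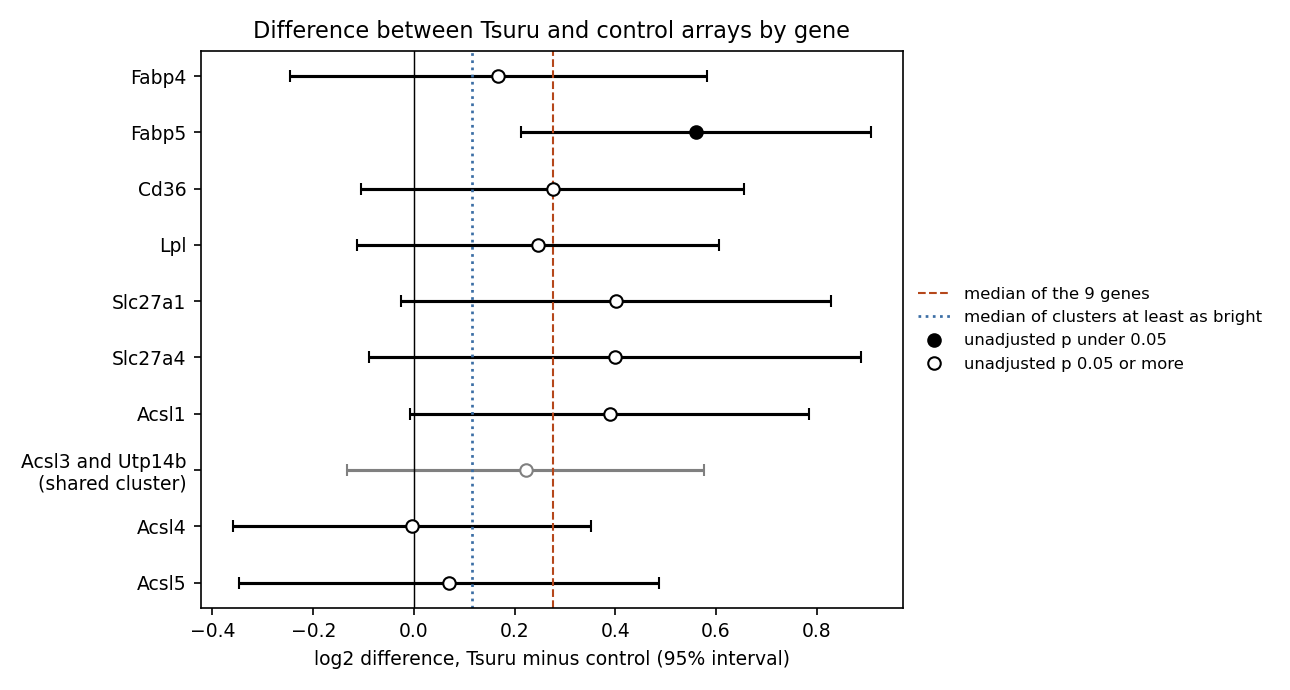
Log2 difference, Tsuru minus control, of each member with its 95% interval from limma; the filled point (Fabp5) had an unadjusted p under 0.05, and the grey row is the cluster shared by Acsl3 and Utp14b. The dashed line marks the members' median, 0.28, and the dotted line the median of clusters at least as bright, 0.12.

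Promoter sequence was compared for Acsl1 and Cd36, which shared their highest and lowest arrays, and for Acsl4, whose difference lay near 0. The choice was made after their values were seen, and no link between sequence and signal was tested. RefSeq entries (build GRCm38.p6, 250 bases before to 50 after each start) were found for 7 of the 10 genes, with 10 starts in all, and Acsl1 has a pair of them. Fabp4, Fabp5 and Lpl had no entry, so no motif was searched in their promoters. The 250 bases before each start are printed 5′ to 3′ on the gene's strand, with motif matches in capitals.
Acsl1 first start, chr8:46470787-46471036, plus strand: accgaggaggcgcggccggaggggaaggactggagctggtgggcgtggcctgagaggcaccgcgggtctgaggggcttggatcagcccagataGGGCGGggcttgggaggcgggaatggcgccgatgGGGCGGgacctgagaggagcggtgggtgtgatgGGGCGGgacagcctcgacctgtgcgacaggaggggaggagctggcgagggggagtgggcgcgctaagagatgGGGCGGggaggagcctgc
Acsl1 second start, chr8:46490716-46490965, plus strand: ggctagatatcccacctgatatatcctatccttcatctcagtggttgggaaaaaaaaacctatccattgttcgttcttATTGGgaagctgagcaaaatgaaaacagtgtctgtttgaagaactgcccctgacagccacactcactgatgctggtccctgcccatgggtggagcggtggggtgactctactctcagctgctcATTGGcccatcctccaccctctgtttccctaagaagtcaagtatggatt
Cd36, chr5:17835897-17836146, minus strand: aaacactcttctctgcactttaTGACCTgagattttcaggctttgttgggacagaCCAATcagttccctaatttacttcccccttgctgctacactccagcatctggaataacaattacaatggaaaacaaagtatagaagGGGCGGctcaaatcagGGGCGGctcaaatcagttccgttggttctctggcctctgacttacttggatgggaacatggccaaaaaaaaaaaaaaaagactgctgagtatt
Acsl4, chrX:142390536-142390785, minus strand: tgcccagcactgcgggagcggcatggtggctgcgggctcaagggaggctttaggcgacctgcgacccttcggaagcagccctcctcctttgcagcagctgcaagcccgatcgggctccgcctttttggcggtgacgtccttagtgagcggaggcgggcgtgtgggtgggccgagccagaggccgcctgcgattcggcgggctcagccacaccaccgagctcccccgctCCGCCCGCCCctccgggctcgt
The first Acsl1 start and Acsl4 are rich in G and C, at 72% and 70.8%, with 4 and 2 GC boxes (GGGCGG or its complement, the Acsl4 pair overlapping), while the second Acsl1 start, at 48.4%, holds 2 CCAAT boxes on the opposite strand and no GC box. Cd36, at 43.2%, holds a nuclear receptor half-site (AGGTCA on the opposite strand), a CCAAT box and 2 GC boxes. Over the 10 whole windows, GC boxes were present in 7 and CCAAT boxes in 6, where 35.7% and 37.4% of all 32851 promoter windows hold them, and the half-site in 1, against 16.3%. The 10 windows come from 7 genes, several from Slc27a1, and are not independent. Their share of G and C ran from 43% to 74%, against a median of 52.7% over all promoters, and the comparison was not matched for it. A direct repeat of 2 AGGNCA copies with any 1 base between them, the general form of a PPAR element, was in none of the 10 (0.381% of all windows), and neither were TTGCNNAA, a C/EBP motif (10.8%), or TATAAA (13.6%). CACGTG stood in 1 window, of Slc27a1 (7.15%). Both strands were searched, and no match says only that these letters are absent from this window.

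Fabp4, Cd36, Lpl and Acsl1 were each highest on Tsuru replicate 1 and lowest on control replicate 3, a grouping made after their values were seen. Averaged over the set, Tsuru arrays deviated from each gene's own mean by 0.28, 0.15 and -0.02, and control arrays by -0.06, -0.03 and -0.32. The 10 adipocyte markers, a list that holds none of the members, ranked the 6 arrays in the same order, with mean deviations of 0.35, 0.16 and 0.07 with Tsuru and -0.16, -0.06 and -0.36 without. The ends of the order were fixed for the 4 genes by how they were grouped. In its middle, Tsuru replicate 3 and control replicate 2 were nearly tied for these genes, at -0.024 and -0.026, so the shared order says little. Over all 9 members the mean deviations were 0.23, 0.08 and 0.11 with Tsuru and -0.17, -0.10 and -0.15 without, so control replicate 1 was lowest and Tsuru replicate 3 lay above Tsuru replicate 2. Slc27a1 and Slc27a4 did not follow that order: both were highest on Tsuru replicate 3 and lowest on control replicate 1. In these bulk samples fewer fat cells in a culture and less RNA of a gene per cell cannot be told apart. The markers past the threshold were Plin1, Plin4 and Cfd, 3 of 10, all higher with Tsuru, where 5.75% of all clusters and 9.89% of the bright ones were called higher. The list was not raised throughout. Uncalled markers differed by 0.47 (Adipoq), 0.33 (Lipe), 0.24 (Retn), 0.14 (Scd1), 0.07 (Cidec), -0.04 (Pnpla2) and -0.26 (Lep). The part of the adipocyte share in the members' differences was not tested.

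**Figure D3:**
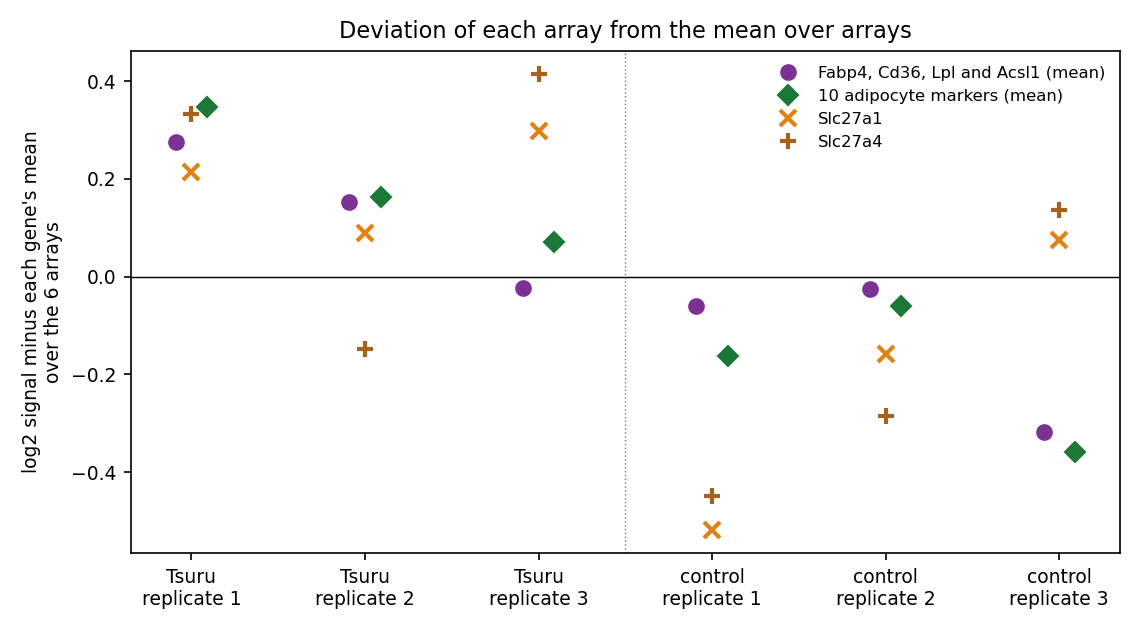
Deviation of each array from the gene's mean over 6 arrays, on the log2 scale, for the mean of Fabp4, Cd36, Lpl and Acsl1 (circles), the mean of 10 adipocyte markers (diamonds) and the transporter genes Slc27a1 and Slc27a4 (crosses). The circles' ends, 0.28 on Tsuru replicate 1 and -0.32 on control replicate 3, follow from how the 4 genes were grouped; the diamonds stand at 0.35 and -0.36 on those arrays.

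Other cell types make Fabp4, Fabp5 and Cd36 as well, although these samples were all of a single cultured line. Of 10 macrophage markers none lay above the negative control mean on every array; the list's mean log2 signal ran from 4.80 to 5.06 with Tsuru and from 5.01 to 5.47 without, and Lyz2 and Mrc1 were the 2 members past the threshold, both lower with Tsuru. Csf1r, Itgam, Adgre1 and Aif1 lay under the negative control mean on all 6 arrays. The other 6 lay above it on some: Lyz2 on 4 arrays, Cd68 and Cd14 on 3, Ptprc and Mrc1 on 2, and Fcgr1 on 1. Of 9 endothelial markers, Flt1 alone was above it throughout, and the list's mean ran from 4.49 to 4.74 with Tsuru and from 4.70 to 4.78 without. Cdh5, under the negative control mean on all arrays, was called lower. The median differences of the macrophage and endothelial lists were -0.09 and -0.12, and clusters under a mean log2 signal of 6 had a median of -0.06 across the array. The part of these cell types in the members' differences was not tested.

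The genes that act beside the members gave 10 calls in the higher and 7 in the lower direction among 81 measured genes of 6 lists (52 positive differences, median 0.09), where 5.75% and 5.38% of all clusters were called higher and lower. Of the 39 genes above the negative control mean on every array 7 were higher and 0 lower, and of the other 42 genes 3 were higher and 7 lower. The whole array leaned the same way with brightness: clusters at least as bright as the dimmest member were called higher in 9.89% and lower in 1.81% of cases, and clusters under a mean log2 signal of 6 in 2.39% and 7.19%. The counts are therefore no result particular to these lists. Calls here use the methods' threshold, and no gene of these lists passed adjustment. Among binding proteins other than the members, 1 of 13 was called higher and 1 lower. The higher one was Dbi, the acyl-CoA binding protein that carries the product of the synthetases, at 12.08, 11.93 and 11.80 with Tsuru and 10.97, 11.31 and 11.34 without. Its groups did not overlap, the difference was 0.73 ± 0.18 (SE; adjusted p = 0.34), and it kept its call in 15 of 15 other fits. Fabp6 was called lower at signals under the negative control mean on all arrays. Acbd7 and Fabp9, next by p, were under it too.

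Among 14 other acyl-CoA synthetases 2 were called in each direction. Acsf2, a mitochondrial medium-chain synthetase, was the bright one, at 11.18, 11.22 and 11.02 with Tsuru and 10.39, 10.59 and 10.49 without. The difference of 0.64 ± 0.16 (SE; adjusted p = 0.34) kept its call in 15 of 15 other fits. Acsf3 (higher), Acsbg2 and Acsm1 (lower) were under the negative control mean on all arrays, so no fold is given for them. Acss1 and Acsm3, the next by p, were likewise under it on all arrays. The 15 thioesterases, which undo acyl-CoA formation, had 2 calls each way, Them5 and Acot3 higher and Acot11 and Acot12 lower, all under the negative control mean on every array. Acot13 and Acot1, the next by p, differed by 0.42 and 0.32, and Acot1 and Acot3 are close relatives whose probes may share signal.

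Of 12 measured genes that handle lipoprotein lipase or lipoproteins, 2 were called higher and 1 lower. Lmf1, the endoplasmic reticulum factor that matures the lipase, read 9.16, 8.84 and 8.97 with Tsuru and 8.33, 8.70 and 8.30 without, a difference of 0.55 ± 0.18 (SE; adjusted p = 0.37). It lost its call without Tsuru replicate 1 (0.46). Lrp1, a lipoprotein uptake receptor, differed by 0.54 ± 0.21, and its call was lost when any array but control replicate 3 was left out, with differences from 0.36 to 0.58. Sel1l and Lmf2, which also serve the lipase's folding, differed by 0.36 and 0.26. Gpihbp1, the endothelial anchor of the lipase, was called lower at signals under the negative control mean on all 6 arrays, 4.76, 4.86 and 5.14 with Tsuru and 5.63, 5.56 and 5.23 without, and lost its call without Tsuru replicate 1. Among 15 other uptake genes 1 was called, Lyplal1, which encodes a lysophospholipase-like hydrolase and is no transporter, at 0.73 ± 0.25, and its call was lost on leaving out Tsuru replicate 1 (0.57), Tsuru replicate 3 (0.68) or control replicate 3 (0.50). Lrp1 and Lyplal1 also lost their calls without the empirical Bayes step. Of the next by p, Cav2 differed by 0.33, and Slc27a6 was under the negative control mean on all arrays.

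Pparg, the gene of PPAR gamma, was among the regulators. It read 14.27, 13.88 and 14.38 with Tsuru and 14.29, 14.37 and 13.98 without, and its groups overlapped; it was singled out as the receptor after its values were seen. Of 12 measured regulators 2 were called higher and 1 lower. Ppargc1b, a coactivator of mitochondrial genes, differed by 0.53 ± 0.16 (SE; adjusted p = 0.35), with a call in 15 of 15 other fits. Nrip1, a corepressor active in fat cells, differed by 0.47 ± 0.16 and lost its call without Tsuru replicate 1 (0.41). Ppara was called lower at signals under the negative control mean on all arrays, its groups overlapped, and it passed the threshold in 6 of 14 other fits. Rxrb and Cebpa, next by p, differed by 0.42 and 0.30.

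**Figure D4:**
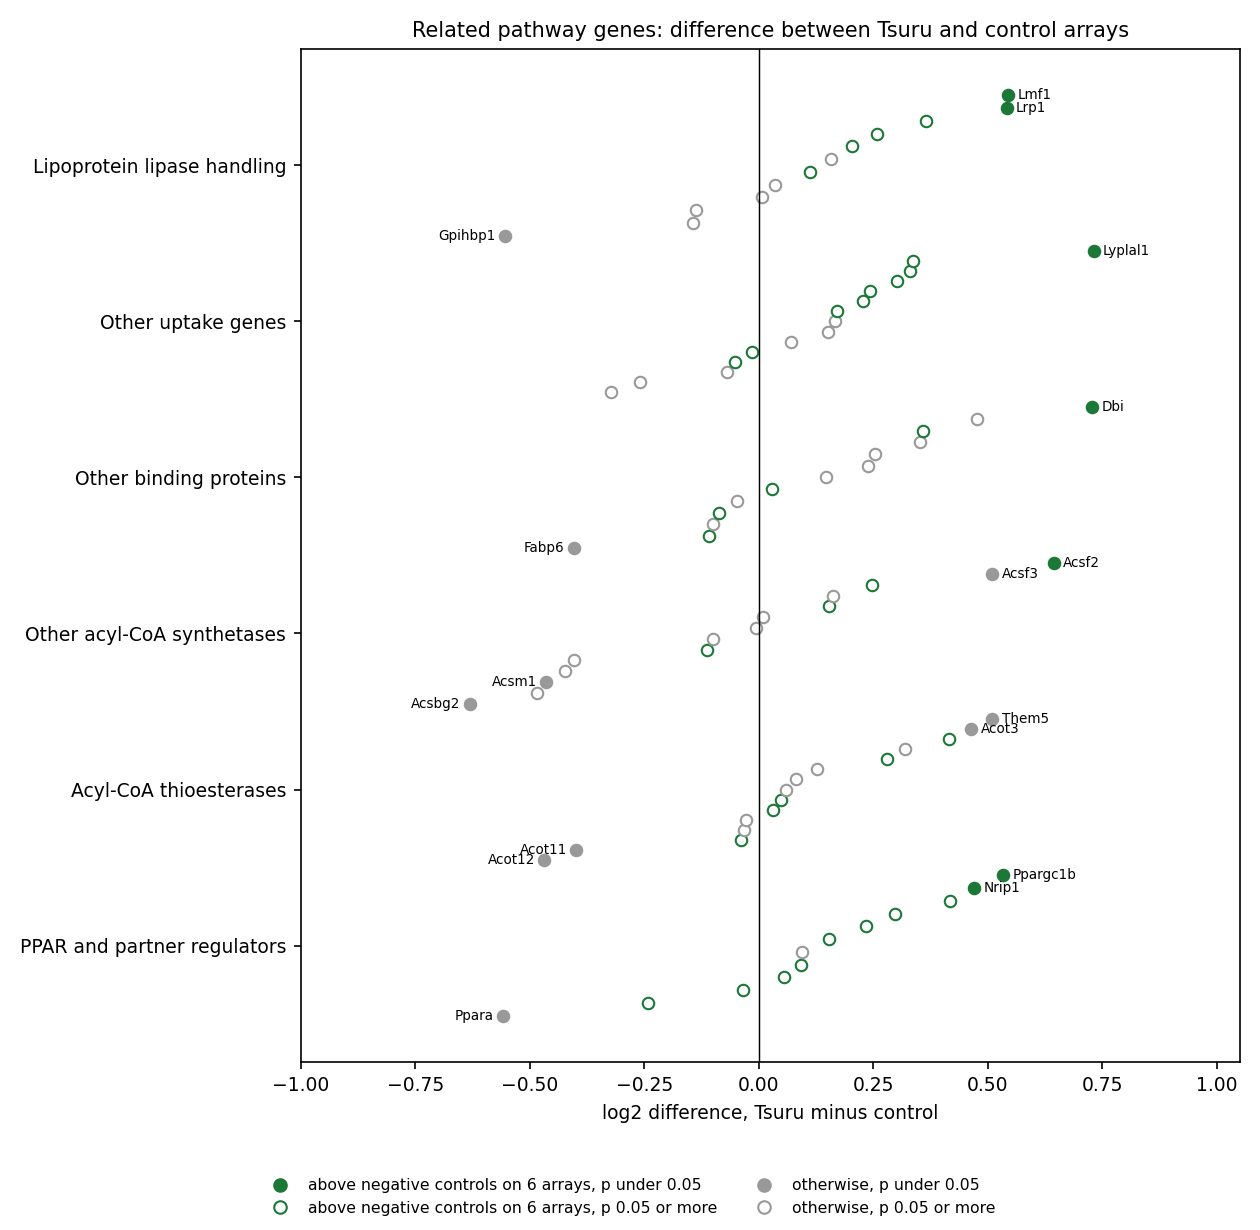
Log2 difference, Tsuru minus control, of 81 related genes in 6 lists, 1 point per gene; green points lay above the negative control mean on 6 arrays, grey points did not, and filled, named points had an unadjusted p under 0.05. The filled green points all lie to the right of 0, and 7 of the 10 filled grey points lie to the left.

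The authors' deposited table placed 3 of the 9 members past the same threshold, which 2641 of its clusters (11.9%) passed. The authors' filtered list is shorter, with 2033 clusters, 9.16% of those tested (5.71% in the higher direction), and held the same 3: Fabp5, Acsl1 and Slc27a1. The fold for Fabp5 in the authors' deposited table was 1.52 with p = 0.0028, that for Acsl1 was 1.29 with p = 0.0421, and that for Slc27a1 was 1.23 with p = 0.0468. The FDR p-values in the authors' deposited table were 0.3109, 0.4038 and 0.4144. For Slc27a4 the authors' deposited table gave group averages of 8.11 with Tsuru and 7.42 without, where the arrays averaged 7.87 and 7.47, and a fold of 1.62 with p = 0.0626. For Fabp4 it gave a fold of 1.06, and the sign of the difference was the same in both sources for 9 of 9 members. Some of the authors' averages lay outside the range of the arrays and so cannot be averages of these signals. The Tsuru average of 8.11 for Slc27a4 exceeded the highest Tsuru array, 8.08. The control average of 14.7 for Acsl4 exceeded the highest control array, 14.67. Why the deposited group averages depart from the arrays was not tested.

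Non-overlap between groups was also counted, without a model and on the same array values as the calls. In 4 of 9 members, Fabp5, Lpl, Slc27a1 and Acsl1, every Tsuru value lay above every control value, where 9.06% of all clusters (16.8% in either direction) and 15.7% of the clusters at least as bright as the dimmest member did so. The 3 of these other than Fabp5 were apart by 0.07 or less on the log2 scale, which is under the SD of either group for Lpl, Slc27a1 and Acsl1.

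**Figure D5:**
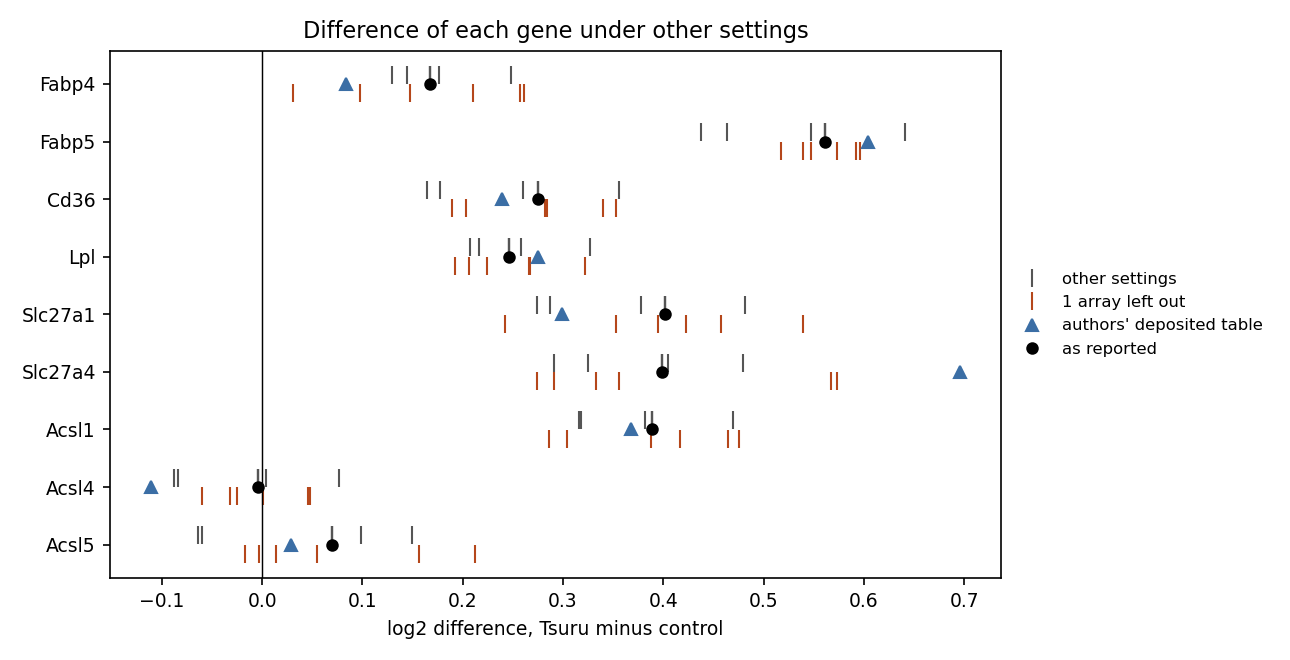
Log2 difference, Tsuru minus control, of each member as reported (circles), with 1 array left out (red ticks), under other settings (grey ticks) and in the authors' deposited table (triangles). Fabp5 stays between 0.44 and 0.64, and Acsl4 and Acsl5 cross 0.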

How the data were processed

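RNA of 3 Tsuru and 3 control samples, grouped by title, was hybridised to 6 Clariom S arrays. The deposited value table holds log2 signals that the authors normalized with SST-RMA in Transcriptome Analysis Console 4.0.2, per the series design text; a genome build was not given in these sources. The authors' deposited table adds signed fold changes (a score written as minus the inverse for decreases), p-values and FDR p-values; the test was a one-way analysis of variance, moderated by empirical Bayes, with a detection cutoff of 0.05 and an AUC limit of 0.7, per the series design text. Control sets (6640) were left out, and lmFit and eBayes of limma 3.58.1 (R 4.3.3) were run on 22206 clusters, Tsuru minus control, with Benjamini-Hochberg adjustment over all clusters. The methods' threshold is an unadjusted p under 0.05 and a fold above 1.1. Pairs of relatives were compared with exact permutation tests in SciPy 1.17.1; Acsl4 minus Acsl3 was planned and could not be run. The steps were tested on simulated data. A gene was named from clusters with 1 symbol, by its brightest cluster. Related lists named 83 genes; Apoc2 and Ppard had no cluster of their own, and Cavin1 was found under an older symbol in a RefSeq table. Named genes were all members, every list gene past the threshold, the 2 next by p in each list, and the 3 profiles nearest Fabp5. Members and lists were chosen with earlier results of these data known. Alternatives covered normalization, variance model, array weights, a filter at log2 6, averaging of clusters, a replicate block, leaving out each array, and the authors' statistics.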

Additional observations from a re-analysis of the deposited data

How the results depend on the processing

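Fabp5 kept its direction and stayed past the methods' threshold in 16 of 16 alternatives, with log2 differences from 0.44 to 0.64 and adjusted p from 0.19 to 0.66. Cd36 and Fabp4 were positive and not called in all 16. The number of members past the threshold, 1 as reported, was 3 after subtraction of array medians, with a variance trend or in the authors' deposited table, 2 without the empirical Bayes step, and 1 to 3 when an array was left out (3 without control replicate 3, and 2 without control replicate 2, or on omitting either Tsuru replicate 2 or Tsuru replicate 3). The members' median, 0.28 as reported, was 0.36 after subtraction of array medians, which also raised the median over all clusters to 0.084. It fell to 0.21 after quantile and to 0.22 after cyclic loess normalization, and was 0.20 to 0.35 when an array was left out. Acsl4 turned positive after subtraction of array medians (0.077) and with array weights (0.0042), and ran from -0.060 to 0.048 with an array left out. Acsl5 turned negative after quantile (-0.060) and cyclic loess (-0.064) normalization, and ran from -0.017 to 0.21 with an array left out. The change in Slc27a4 minus Slc27a1 was 0.037 and 0.017 under those normalizations, and -0.067 to 0.12 with an array left out. Related genes past the threshold, 17 as reported, numbered 7 with the filter at log2 6, all higher, and 9 to 19 with an array left out. Over the array, 1309 clusters passed with that filter, which tests fewer clusters, and 1659 to 3616 with an array left out; 0 to 25 reached an adjusted p under 0.05, the 25 without control replicate 3. Apart from the filter, the cause of these changes was not tested.

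Deviations of same-numbered arrays correlated at 0.0020, 0.0059 and 0.19 across clusters, over 0.1 in 1 of 3 pairs, so the replicate numbers were not taken as pairs. With a replicate block 2775 clusters and 1 member, Fabp5, passed the threshold (Fabp5 adjusted p = 0.27, limma), 17 related genes passed, and 0 clusters reached an adjusted p under 0.05. Not every array correlated best with its own number.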

Other observations

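The direction of differences varied with brightness across the whole array, in bins chosen after the data were seen. Among 12292 clusters with a mean log2 signal under 6, 39.4% had a higher mean with Tsuru, 2.39% were called higher and 7.19% lower. Among 4940 clusters between 6 and 9, 62.0% had a higher mean, with 10.4% called higher and 4.64% lower. Among 3286 clusters between 9 and 12, the range that holds Fabp5 and Slc27a1, those shares were 68.7%, 10.5% and 1.58%. Among 1341 clusters between 12 and 15 they were 63.4%, 7.83% and 1.94%, and among 347 clusters of 15 and over, where Fabp4, Lpl and Acsl1 lie, 65.7%, 5.19% and 1.15%.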
